A study of Mus musculus with 2 samples.

Results

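miR-199 and miR-214 are microRNAs best known from mesenchymal tissue, and their hairpins were followed here in the embryonic hindbrain of B6NCrl mice, at day 16.5 of development. The 4 hairpins were taken by name, through the Ensembl identifiers of the gene entries, and are Mir214, Mir199a-2, Mir199b and Mir199a-1, out of 1973 counted genes. MicroRNA sequencing was done on 1 group with 2 biological replicates, each a pool of hindbrains from healthy male and female embryos. Replicate 2 came from 37 embryos, and the number for replicate 1 is not stated in the labels. The libraries were made from total RNA with a stated size limit of 30 nt. No agent or genotype was compared. They held 5097205 sense counts on microRNA genes in replicate 1 and 4460836 in replicate 2.

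Mir214 and Mir199a-2 are made from 1 long noncoding transcript, Dnm3os, which runs opposite to the dynamin gene Dnm3. Its transcription is known to depend on the mesenchymal factor Twist1, and mice without Dnm3os have skeletal defects. Mir199b and Mir199a-1 lie opposite to the other dynamin genes, Dnm1 and Dnm2. The family is best known from limb, skeletal and connective tissue, and around the brain the meninges and skull are of mesenchymal origin. A microRNA selects its messenger RNA targets mainly through its seed, bases 2 to 8 of the mature strand. The hairpin yields a mature strand from its 5′ arm (5p) and from its 3′ arm (3p).

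The mature sequences are shown first, because they decide which of the 4 genes a read can be told apart by. All 4 hairpins were found in the RefSeq table (GRCm38.p6), with 7 entries for mature arms that hold 4 distinct sequences. In the lines below the capitals mark the seed.
miR-199a-5p: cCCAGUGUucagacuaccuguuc
miR-199a-3p: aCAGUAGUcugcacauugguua
miR-199b-3p: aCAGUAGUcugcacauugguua
miR-214-5p: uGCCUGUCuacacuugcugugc
miR-214-3p: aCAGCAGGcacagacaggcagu

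miR-199a-3p and miR-199b-3p are the same sequence, held by Mir199a-1, Mir199a-2 and Mir199b. miR-199a-5p is held by Mir199a-1 and Mir199a-2. Both miR-214 arms were found in no other mouse hairpin of the table. The 4 distinct arms have 4 different seeds. Outside the 4 hairpins, 1 of these seeds recurred: miR-761, from chromosome 4, has the same bases 2 to 8 as miR-214-3p.
miR-761: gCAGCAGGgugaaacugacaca

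Mir761 had 0 counts in both libraries, and 0 counts allow up to 3 counts, or 0.589 CPM in the first library and 0.673 CPM in the second. CPM is the count per 1000000 sense counts of the library. The hairpins that carry the arms follow, with capitals on each run of at least 22 bases, the length of the shortest arm, that another of the 4 hairpins also holds.
Mir214: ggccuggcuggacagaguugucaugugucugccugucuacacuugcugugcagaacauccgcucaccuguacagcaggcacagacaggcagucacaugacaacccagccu
Mir199a-2: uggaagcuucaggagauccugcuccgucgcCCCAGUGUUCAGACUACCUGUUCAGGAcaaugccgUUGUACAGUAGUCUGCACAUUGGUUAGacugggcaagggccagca
Mir199b: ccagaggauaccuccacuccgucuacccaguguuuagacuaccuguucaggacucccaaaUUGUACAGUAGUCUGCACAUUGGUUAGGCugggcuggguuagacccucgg
Mir199a-1: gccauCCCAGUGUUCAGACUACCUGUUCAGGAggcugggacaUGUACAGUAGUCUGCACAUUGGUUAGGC

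The hairpins differ in how much of them is private. Mir214 has no shared base by this measure, and its longest run in common with any of the others is 7 bases. Mir199b shares 29 of 110 bases, all around its 3p arm. Mir199a-2 shares 54 of 110 and Mir199a-1 55 of 70, around both arms. The run around the 5p arm that Mir199a-1 and Mir199a-2 have in common is 27 bases long, and the run around the 3p arm that Mir199a-1 and Mir199b have in common is 28, both longer than the mature strands of 22 and 23 bases. Mir199b holds no identical copy of miR-199a-5p, and its nearest stretch, in the 5′ arm, differs from it by C10U, counted from 1 at the 5′ end of miR-199a-5p. That base lies outside the seed. The capital marks it in the line that follows.
Mir199b, 5′ arm stretch: cccaguguuUagacuaccuguuc

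On the genome, Mir199a-2 (ENSMUSG00000070126.1) lies on the plus strand of chromosome 1 from 162217814 to 162217923 (mm10), 191 nt after the start of Dnm3os. Mir214 (ENSMUSG00000065516.1) follows 5444 nt further on, from 162223368 to 162223477. Each lies inside an exon of 2 Dnm3os transcripts, and both lie in introns of Dnm3 on the opposite strand. Mir199b (ENSMUSG00000092807.1) lies on chromosome 2 from 32318460 to 32318569, in an intron of Dnm1 on the opposite strand. Mir199a-1 (ENSMUSG00000065547.1) lies on chromosome 9 from 21496495 to 21496564, in an intron of Dnm2, again on the opposite strand. The host transcripts were not measured in these libraries.

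Mir214 was the most abundant of the 4 hairpins and Mir199a-1 was all but absent from the counts. Mir214 had 1879 counts in replicate 1 and 828 in replicate 2. Mir199b had 516 and 375, and Mir199a-2 had 42 and 23. Mir199a-1 had 0 counts in replicate 1, which allows up to 0.589 CPM, and 1 count in replicate 2. The order Mir214, Mir199b, Mir199a-2, Mir199a-1 was the same in both libraries. Counts were not divided by length, since a read covers about 1 mature arm whatever the length of the hairpin entry.

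In CPM, Mir214 stood at 368.6 in replicate 1 (exact binomial 95% interval 352 to 386) and 185.6 in replicate 2 (173 to 199), a mean of 277 ± 129 (SD, n = 2). Mir199b stood at 101.2 CPM (92.7 to 110.4) and 84.1 CPM (75.8 to 93.0), a mean of 92.6 ± 12.1 (SD, n = 2). Mir199a-2 stood at 8.24 CPM (5.94 to 11.1) and 5.16 CPM (3.27 to 7.74), a mean of 6.70 ± 2.18 (SD, n = 2). All 3 were higher in replicate 1, and the intervals of the libraries were apart for Mir214, overlapped by a narrow margin for Mir199b and overlapped widely for Mir199a-2. The single read of Mir199a-1 corresponds to 0.224 CPM (0.00568 to 1.25). These intervals cover counting error only and leave out the spread between pools. Without molecular identifiers several reads can stem from 1 molecule, so they may be too narrow even for counting error.

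Placed among all counted genes, Mir214 ranked 154, Mir199b 219 and Mir199a-2 323 of 1973 by mean CPM. Of the 385 genes with at least 10 counts in both libraries, 60% lay below Mir214, 43.1% below Mir199b and 16.1% below Mir199a-2. Mir199a-1 did not reach that minimum. Together the 4 hairpins held 0.0478% of the sense counts in replicate 1 and 0.0275% in replicate 2. Mir214 supplied 77.1% and 67.5% of this sum, and Mir199b 21.2% and 30.6%.

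**Figure D1:**
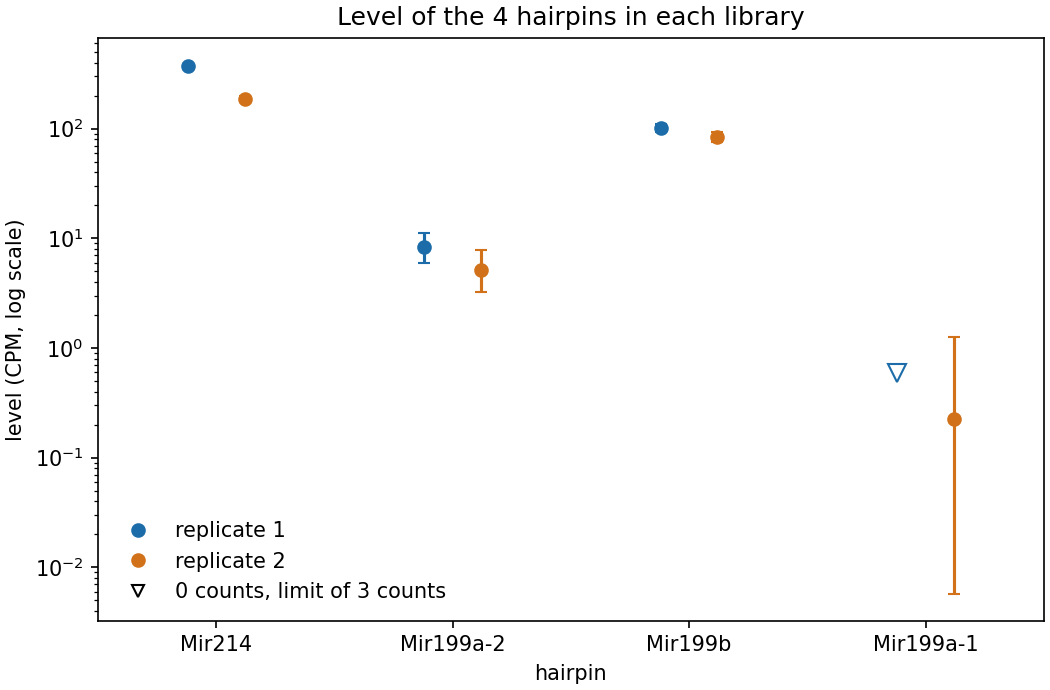
Level of each hairpin in CPM on a log axis, with 1 point per library and bars for the exact binomial 95% interval of counting error. Mir214 is highest at 368.6 and 185.6 CPM, and the open triangle marks the limit of 0.589 CPM for the 0 counts of Mir199a-1 in replicate 1.

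Within a library the levels of the hairpins were far apart. Mir214 exceeded Mir199b 3.64-fold in replicate 1 (95% interval 3.30 to 4.02) and 2.21-fold in replicate 2 (1.95 to 2.50). Its excess over Mir199a-2, which is cut from the same transcript, was 44.7-fold and 36.0-fold. On the log2 scale these differences averaged 1.50 ± 0.51 and 5.33 ± 0.22 (SD, n = 2). Both exceeded 2 SD, the limit used here because the smallest p of an exact sign-flip test over 2 libraries is 0.5. Mir199b exceeded Mir199a-2 12.3-fold and 16.3-fold, a comparison added after the values were seen. Mir199a-2 was at least 14-fold higher than Mir199a-1 in replicate 1, taking 3 counts as the limit for 0, while an exact interval that takes in the error of both counts has its lower end at 10.9-fold. It was 23 times as high in replicate 2 (interval 3.73 to 947).

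The order of the 3 miR-199 hairpins by count was also their order by the number of private bases, 81 for Mir199b, 56 for Mir199a-2 and 15 for Mir199a-1. Private bases include bases outside the mature arms and depend on the length of the entry, 110, 110 and 70 bases. A link between sharing and the order of the counts was not tested. A summary line of each table, named for multimapping, gives 3802165 reads in replicate 1 and 3410352 in replicate 2. It was read as reads that fit several places and were set aside from the gene counts, a rule of the counter that no source used here states. These reads are 34.5% and 35.1% of all reads, and the line is not broken down by microRNA. A read that ends within a shared run matches more than 1 hairpin. On that reading the counts of Mir199a-1 and Mir199a-2 do not measure the amount of miR-199a-5p or miR-199a-3p, and those of Mir199b would leave out reads confined to its 3p arm. How many multimapping reads belong to these arms was not tested. The excess of Mir214 over each miR-199 hairpin, and its place at the head of the 4, concern counts of hairpins and carry the same limit.

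Shared arms were not confined to this family. Of the 1973 counted genes, 916 had a listed mature arm, and in 35 of them every listed arm also occurred in another hairpin. Mir199a-1 and Mir199a-2 are among them with both arms, and Mir199b with its 3p arm, the only one listed for it. Of these 35 genes, 8 had at least 10 counts in both libraries (22.9%), against 302 of 831 (36.3%) with no arm in another hairpin, the class of Mir214, and 36 of 50 (72%) with some arms shared. Among the 8 the median was 201 CPM, above the 92.6 CPM of Mir199b and the 6.70 CPM of Mir199a-2. The classes rest on the arms the table lists and are given as a description.

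**Figure D2:**
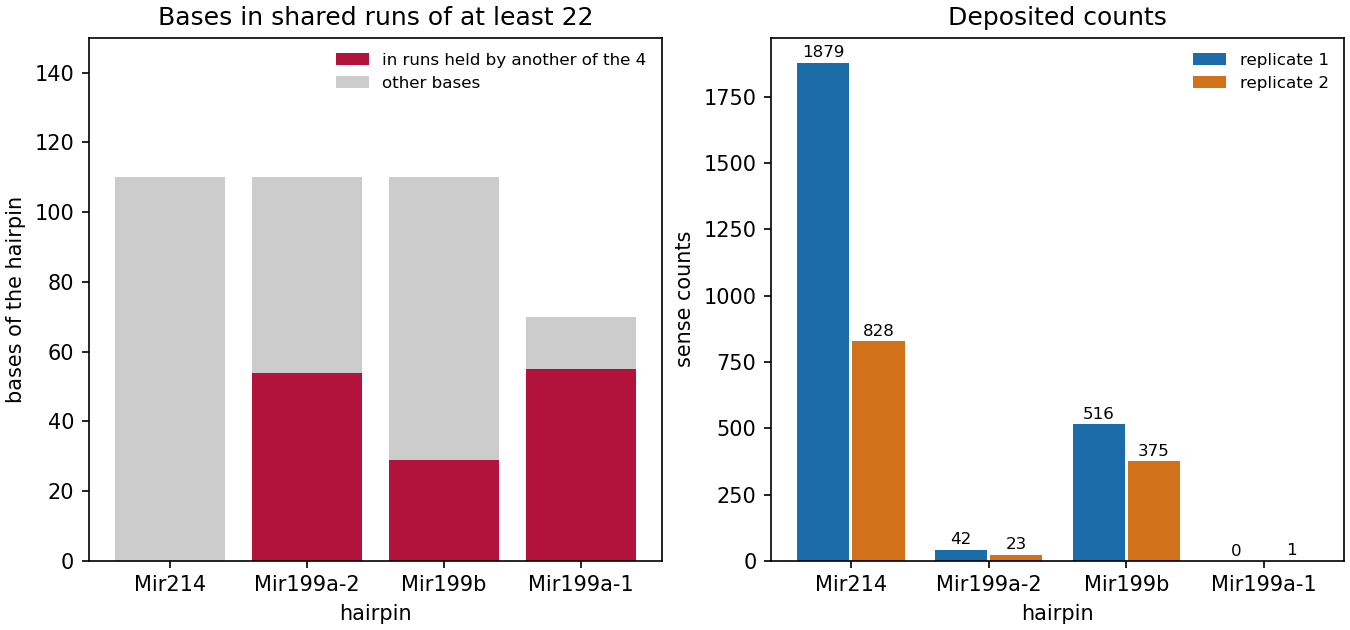
Left, bases of each hairpin that lie in a run of at least 22 held by another of the 4 hairpins, stacked on the other bases. Right, deposited sense counts in both libraries on a linear axis from 0: Mir214, with 0 shared bases, has 1879 and 828 counts, and Mir199a-1, with 55 of 70 shared, has 0 and 1.

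The libraries differed in Mir214, which was 1.90-fold higher in replicate 1. The log2 ratio of replicate 2 over replicate 1 was -0.93 (95% interval -1.04 to -0.81) against totals scaled by TMM (trimmed mean of M-values), with an adjusted p of 9.01e-56 by an exact binomial test with Benjamini-Hochberg adjustment over 401 genes. This test allows for counting noise only and compares 2 libraries, not conditions. It called 46.4% of the 401 genes, 24.4% as higher in replicate 1 and 21.9% as higher in replicate 2, so a call by itself sets no gene apart. The size of the Mir214 difference was less common. Of the 401 genes, 8, or 2%, were called higher in replicate 1 by at least as much, Mir214 included, while the median absolute log2 ratio was 0.18.

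Neither miR-199 hairpin passed the same test. Mir199a-2 gave a log2 ratio of -0.61 (interval -1.41 to 0.16, exact binomial adjusted p = 0.196), and Mir199b gave -0.20 (interval -0.40 to -0.01, exact binomial adjusted p = 0.0830). Mir199b did pass with plain library totals, at -0.27 and an exact binomial adjusted p of 0.0150. All 3 ratios were below 0, with a median of -0.61, that of Mir199a-2, and Mir214 and Mir199a-2 share the transcript Dnm3os. The median over all tested genes was -0.003, so about as many genes lay below 0 as above, and a ratio below 0 sets no gene apart. Mir199a-1 had too few counts to be tested.

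When the replicate spread was allowed for, the call of Mir214 depended on the size assumed. The biological coefficient of variation (BCV) is the spread between replicates beyond counting noise. Set at 10%, it gave Mir214 an adjusted p of 0.00158 in edgeR's exact test between the libraries, where 1.75% of the 401 genes were called. At the BCV of 16.2% estimated from the same libraries the adjusted p of Mir214 was 0.523 with edgeR's exact test, and 0.748% were called. That estimate took both libraries as 1 group, so it counts the differences under test as spread. Few calls were therefore partly fixed in advance, and the loss of the Mir214 call decides nothing. With either BCV, Mir199a-2 and Mir199b did not pass.

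**Figure D3:**
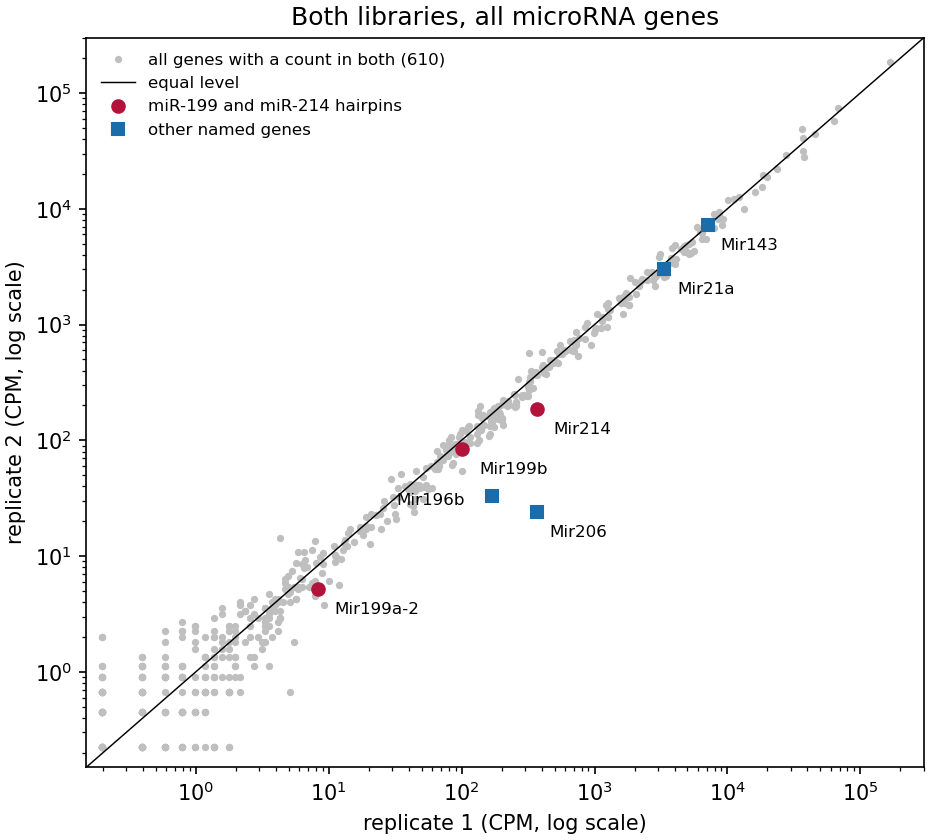
Level of every gene with a count in both libraries (610 genes), replicate 1 against replicate 2 in CPM on log axes, with the line of equal level. Mir214 lies below the line at 368.6 and 185.6 CPM, Mir199b and Mir199a-2 lie nearer to it, and the muscle gene Mir206 and the Hox-cluster gene Mir196b lie furthest below among the 7 genes marked.

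The difference in Mir214 was larger than that in Mir199b. Their log2 library ratios differed by -0.72 (95% interval -0.95 to -0.49, Fisher's exact test on the 4 counts, p = 1.36e-09 adjusted over 3 pairs), a comparison that needs no scaling and allows for counting noise only. Mir214 and Mir199a-2, the hairpins of Dnm3os, differed by -0.31 (interval -1.09 to 0.50, Fisher's exact test, adjusted p = 0.416). Mir199a-2 and Mir199b differed by -0.41 (interval -1.23 to 0.39, Fisher's exact test, adjusted p = 0.416). With 42 and 23 counts for Mir199a-2, a difference of up to about 1 log2 unit from its neighbour Mir214 lies within the interval. These 3 comparisons were chosen after the values were seen.

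Other microRNAs linked with mesenchyme and fibroblasts were called in either direction. Of 8 such genes tested, 1 was called higher in replicate 1 and 2 in replicate 2, near the 24.4% and 21.9% of all tested genes, with a median log2 ratio of 0.00 and a range from -0.27 to 0.30. Mir21a, an abundant fibroblast microRNA, had 17107 and 13449 counts and a log2 ratio of -0.09. Mir22 (0.30) and Mir31 (0.27) were the members higher in replicate 2, while Mir29a, Mir29b-1, Mir29b-2, Mir29c and Mir152 did not pass. Mir29a and Mir29c belong to the miR-29 family, which represses collagen genes, and had log2 ratios of 0.15 and 0.10. The 8 genes summed to 9762 and 10500 CPM in the 2 libraries, against 478 and 275 CPM for the miR-199 and miR-214 hairpins. Most of the larger sum came from Mir22, with 5913 and 6968 CPM, and Mir21a, with 3356 and 3015 CPM.

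The 2 cartilage microRNAs were both called higher in replicate 1. Mir140, which lies in the Wwp2 gene and is known for its high level in chondrocytes, had 20456 and 14757 counts and a log2 ratio of -0.21. Mir455, in the collagen gene Col27a1, had 1497 and 1089 counts and a log2 ratio of -0.20. Both were close to the -0.20 of Mir199b and smaller in size than the -0.93 of Mir214. All 3 vascular and mural genes (Mir126a of endothelium, Mir143 and Mir145a of smooth muscle and pericytes) were higher in replicate 2, by 0.07 to 0.22 on the log2 scale. Over all tested genes, 24.4% were called higher in replicate 1 and 21.9% in replicate 2. These short lists were not tested against those shares.

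Mir214 was well below Mir21a and Mir143 in level. Mir21a was in turn below Mir22, and Mir143 below Mir126a, the most abundant genes of their lists. The log2 ratio of Mir214 to Mir21a within a library was -3.19 in replicate 1 and -4.02 in replicate 2, a mean of -3.60 ± 0.59 (SD, n = 2). Its log2 ratio to Mir143 was -4.28 and -5.27, a mean of -4.77 ± 0.70 (SD, n = 2). Both exceed 2 SD. In bulk tissue, fewer cells of a type and less RNA per cell cannot be told apart.

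Several markers of muscle, epithelium and posterior Hox positions were higher in replicate 1, as Mir214 was, and as 24.4% of all tested genes were. The muscle list had 9 of its 10 genes counted, and they summed to 402 and 44.6 CPM, or 32.6 and 20.4 CPM without Mir206. Of 5 tested, 3 were higher in replicate 1: Mir206 of skeletal muscle (log2 ratio -3.87), Mir133b (-2.86) and Mir499 (-1.03). Mir133b rested on 26 and 3 counts (95% interval -5.23 to -1.15) and Mir499 on 61 and 25 (-1.76 to -0.34). Mir208b (-0.14) and Mir1b (-0.51) were not called, Mir208a had 4 and 9 counts, and Mir1a-1, Mir133a-1 and Mir133a-2 had 0 counts in both libraries. The posterior Hox list summed to 173 and 39.5 CPM, with 1 of 2 tested genes higher in replicate 1, Mir196b (-2.30). Without Mir196b the sums were 4.90 and 6.73 CPM, all from Mir196a-2 (log2 ratio 0.52, not called), since Mir196a-1 had 0 counts in both libraries. If multimapping reads were set aside, as read above, 0 counts of a hairpin do not show that its mature microRNA was absent. The epithelial list stood at 186 and 111 CPM, with 2 of 5 genes higher in replicate 1, Mir429 (-0.81) and Mir200c (-0.80). The part of such tissue in the Mir214 difference was not tested, and these lists were known from earlier results to differ. Mir214 and Mir206 had nearly equal counts in replicate 1, 1879 and 1884, but in replicate 2 Mir214 had 828 and Mir206 had 108.

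The labelled tissue was checked on a list of neural microRNAs. Its 8 counted genes summed to 13391 and 12047 CPM, led by Mir137, with Mir128-1, Mir128-2 and Mir9-3 next. The other 4 genes had few counts, with 22 and 13 for Mir124a-1, 11 and 3 for Mir124a-2, 1 and 2 for Mir124a-3, and 4 and 5 for Mir9-2, so the check rests on the first 4 genes. The vascular and mural list summed higher than the neural list, to 34724 and 36467 CPM, and the choroid plexus list lower, to 7195 and 7730 CPM. The neural sum alone therefore does not single out the tissue. On the reading given above, multimapping reads are in none of these counts. Few counts of a hairpin therefore do not show that its mature microRNA was scarce, which was not tested. Of 5 neural genes tested, 1 was higher in replicate 1 and 2 in replicate 2. Of the choroid plexus list, 1 of 3 was higher in each library, and of the blood list, 2 of 4 tested were higher in replicate 1 and 1 in replicate 2. Of all 401 tested genes, 24.4% were called higher in replicate 1 and 21.9% in replicate 2. Whether these short lists depart from those shares was not tested.

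**Figure D4:**
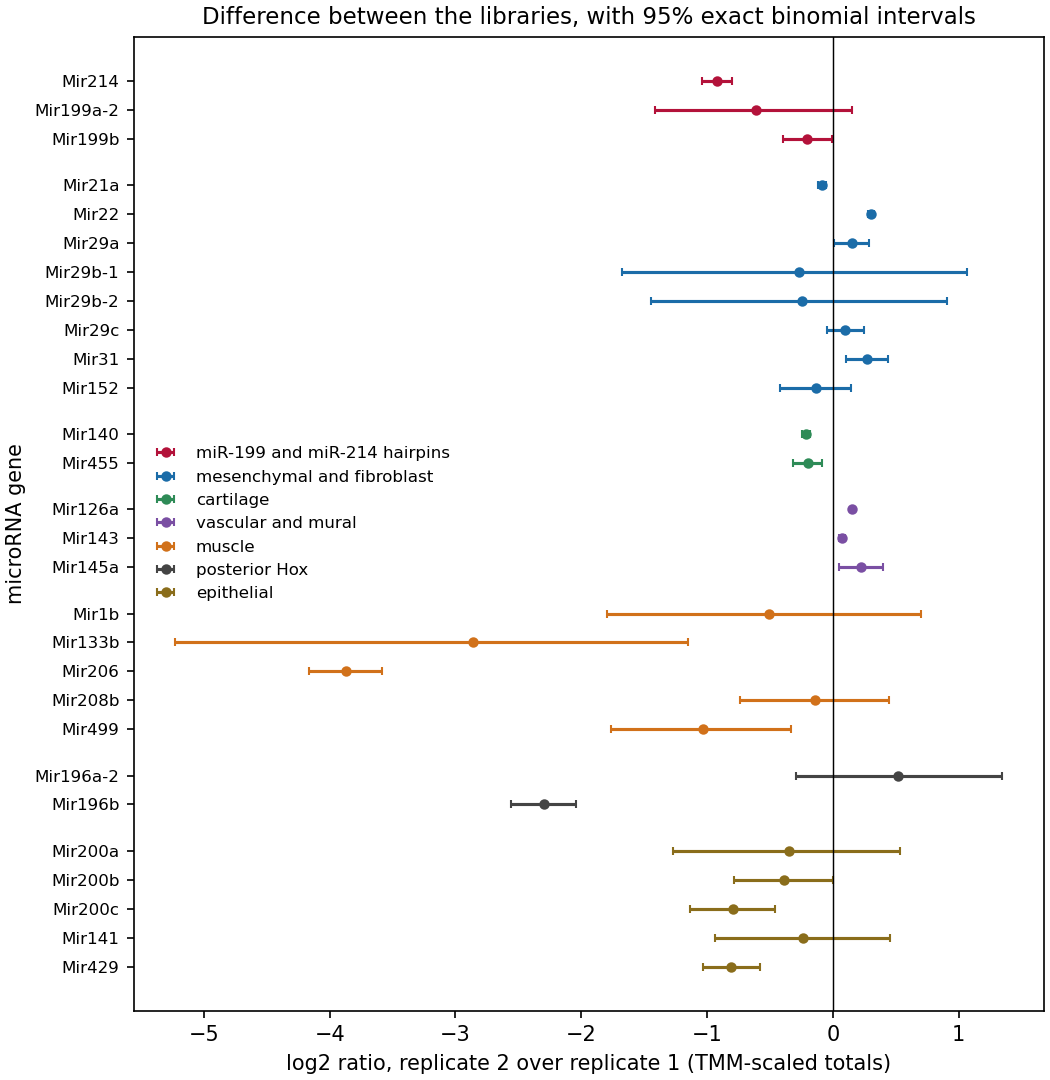
Log2 ratio of replicate 2 over replicate 1 for the tested miR-199 and miR-214 hairpins and each tested gene of the named lists. Bars are exact binomial 95% intervals of counting error, and the neural, choroid plexus and blood lists are not drawn. Mir214 sits at -0.93, outside the range of the mesenchymal and fibroblast list (-0.27 to 0.30), while Mir206, Mir133b, Mir196b and Mir499 are further from 0.

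Genes of like level had smaller library ratios than Mir214, a difference given as a description. The 5 genes nearest to it in mean log2 CPM were Mir374b, Mir665, Mir455, Mir25 and Mir302d, whose log2 library ratios ran from -0.32 to -0.14. Nearest to Mir199b in level were Mir24-2, Mir222, Mir1224, Mir33 and Mir301b, with ratios from -0.24 to 0.44. For Mir199a-2 they were Mir3062, Mir675, Gm26117, Mir147 and Mir3081, with 17 to 47 counts a library and ratios from -1.21 to -0.29.

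Likeness in the library ratio itself was measured over the 2 libraries only, among 215 genes of at least 100 CPM. The 5 nearest to Mir214 were Mir483, Mir106a, Mir412, Mir351 and Mir181b-2, the nearest of them, Mir483 in the Igf2 gene, at -0.53. None of the 5 came within 0.39 of Mir214 on the log2 scale. Below 100 CPM some genes were nearer to it, among them Mir499 (-1.03), Mir429 (-0.81) and Mir200c (-0.80). The same 5 were nearest to Mir199a-2. Nearest to Mir199b were Mir455, Mir138-1, Mirlet7a-1, Mir7-1 and Mir140, all within 0.011 of its ratio. The counting interval of Mir199b, -0.40 to -0.01, is far wider than that, so which 5 genes lie nearest to it is not settled.

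Reads on the strand opposite to the 4 hairpins were nearly absent. Mir214 had 3 opposite-strand counts in replicate 1 and 0 in replicate 2, and the other 3 hairpins had 0 in both. Unstranded counts therefore gave the same order of levels, with Mir214 at 271 CPM.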

How the data were processed

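MicroRNA sequencing was done on 2 libraries of embryonic hindbrain. The deposited tables hold raw read counts per gene, made by the authors on mm10 with GENCODE M4, per the text deposited with each sample. For the aligner and the counter, the sources used here give no name. Of the 3 count columns of a table, the second, with nearly all gene counts, was used as the sense count. Totals leave out the 4 summary lines, such as multimapping reads (34.5% and 35.1% of all reads). Identifiers were matched without version to GENCODE M21 on the same assembly, and 1894 of 1973 matched. Sequences are those of RefSeq, GRCm38.p6.

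CPM used the plain sense total. Libraries were compared by a two-sided exact binomial test, with totals scaled by TMM, at an adjusted p of 0.05. It covered the 401 genes that had 20 or more counts in sum. A check on simulated data drew counts with counting noise only, so it does not cover spread between replicates. With 1 group there is no comparison of conditions. Detection means at least 10 counts in both libraries. Genes named were the 4 hairpins, the listed markers, and the 5 nearest in level and in library ratio. Genes past the Mir214 difference and Mir761 came from added searches. The members, lists and pairs were chosen with earlier results of these data known. Alternatives were other scalings, strands, minimums and edgeR's exact test. The tools were edgeR 4.0.16 and DESeq2 1.42.0 under R 4.3.3, and scipy 1.17.1 under Python 3.11.15.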

Additional observations from a re-analysis of the deposited data

How the results depend on the processing

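No paired analysis was possible because the series has 1 group. The levels of Mir214, Mir199a-2, Mir199b, Mir199a-1 and their sum stayed within 1 SD under TMM-scaled totals and unstranded counts. A total without the most abundant gene raises all levels of a library by the same factor. Mir214 rose from 277 to 335 CPM, Mir199a-2 from 6.70 to 8.11 CPM and Mir199b from 92.6 to 112.4 CPM. Mir199b alone left the range of 1 SD, since its SD was small for its level (12.1 CPM, against 129 CPM for Mir214). Staying within 1 SD therefore does not show that the other levels depend less on this setting. The log2 library ratio of Mir214 kept its sign under every scaling and test, from -0.99 to -0.92. It lost its call at the estimated BCV alone (-0.92, edgeR's exact test adjusted p = 0.523), an estimate that counts the differences under test as spread. Mir199b gained a call with plain totals alone (-0.27). The count of genes that differ between the libraries fell from 186 to 7 and 3 with edgeR's exact test at the assumed and the estimated BCV, which allow for spread beyond counting. With plain totals it was 193, 131 higher in replicate 1 and 62 in replicate 2, against 98 and 88 with TMM. The ratios of Mir214 to Mir199b, Mir199a-2, Mir21a and Mir143 kept their sign and their side of 2 SD with 0.5 counts added or with unstranded counts. Mir199a-1 had too few counts for a library ratio, and its pair with Mir199a-2 has no mean. Depth limits Mir199a-2, with 42 and 23 counts.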
